A study of Mus musculus with 2 samples.

Results

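The cells described here are the 366 deepest macrophages of a single-cell library labelled IRF8KO, out of 5303 cell barcodes in that library and 8807 in the series. They were chosen by measured values: at least 7000 UMIs in a cell, at most 10% of UMIs from mitochondrial genes, and under 2% of UMIs from 6 neutrophil genes (Camp, Ngp, S100a8, S100a9, Lcn2 and Ltf). Transcripts were counted by UMIs, short random tags that mark each captured molecule. The 366 cells were compared with 3782 cells of the same library that held 2000 to 5000 UMIs under the same other limits, called the ordinary cells below. Every cell was first thinned at random to 2000 UMIs, so that a gene's level is a share of an equal number of molecules. Levels are given as CPM, the UMIs of a gene per 1000000 UMIs of the set.

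The study profiled sorted brain microglia from female C57BL/6 mice aged 3 months, in 1 library titled WT and 1 titled IRF8KO, to compare single-cell transcriptomes with and without IRF8. Each library came from 3 pooled mice, the cells were isolated without enzymes and sorted, and no other treatment is given for either group. The genotype entry of the knockout sample says WT, against its title, so it is named the library labelled IRF8KO. With 1 library per group no value has a replicate, cells of a pool are not replicates, and no test was made. The 95% intervals are exact Poisson intervals for levels, exact conditional binomial intervals for ratios and exact binomial (Clopper-Pearson) intervals for shares of cells. All of them cover counting error only.

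Microglia are the resident macrophages of the brain, and they survey tissue, clear debris and respond to injury. IRF8 is a transcription factor of the myeloid lineage on which the mature microglial state depends. The number of UMIs in a droplet depends on how much RNA the cell holds, on how efficiently that RNA is captured, and on whether more than 1 cell shared the droplet. A larger or activated cell is generally thought to differ from its neighbours in particular transcripts, such as those for ribosomes, stress or cytokines, so the composition of deep cells was examined class by class.

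High-UMI cells held from 7001 to 40063 UMIs, with a median of 10166, against a median of 2881.5 in ordinary cells. They were 6.90% of the library's barcodes and carried 22.9% of its 19998075 UMIs. At least 10000 UMIs were found in 187 of the 366 cells and at least 20000 in 43. The 2 shallowest held 7001 and 7044 UMIs, and the 2 deepest cells below the limit were within 5 UMIs of it. Of 415 cells with at least 7000 UMIs, 49 were left out for neutrophil genes and 0 for mitochondrial genes. The depth was continuous, and 361 cells above 5000 and under 7000 UMIs, called the middle cells below, lay between the sets. The WT library also had such cells, 524 of 3504 barcodes, with a median of 12339 UMIs. The libraries shared 5 barcodes, and 0 of them were high-UMI cells.

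**Figure D1:**
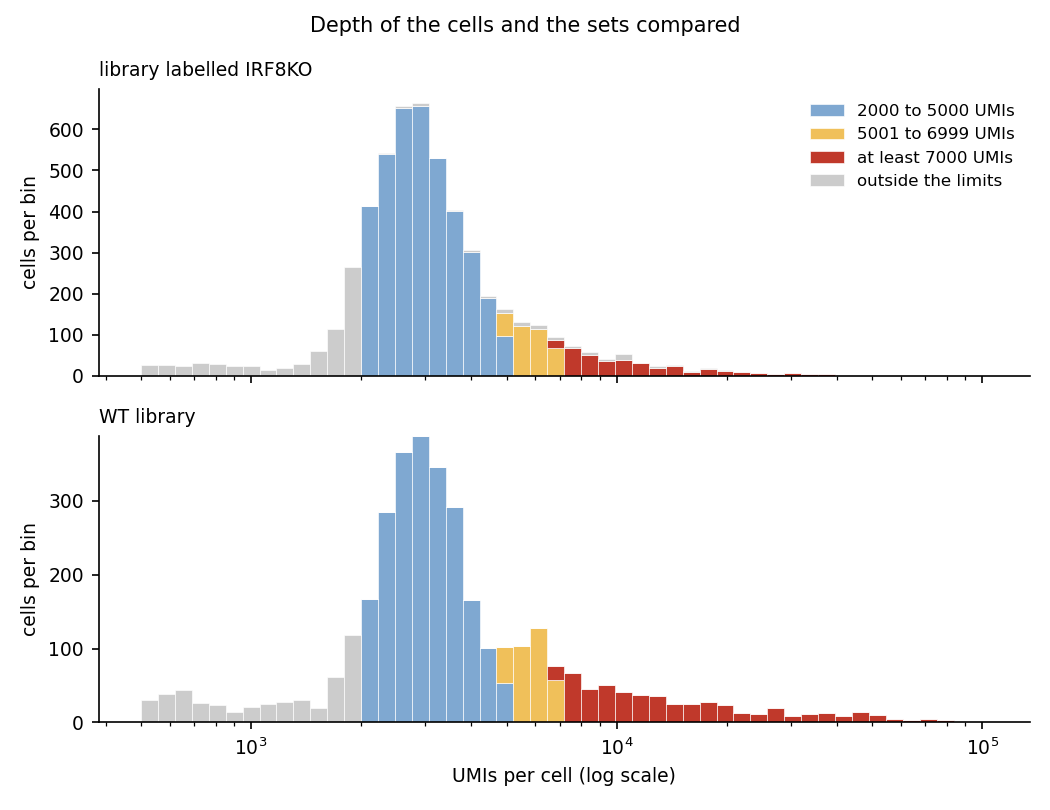
Number of cells per bin of UMIs per cell (log scale) in each library, stacked by set: ordinary cells in blue, the middle cells in yellow, at least 7000 UMIs in red, and cells outside the limits in grey. The high-UMI cells of the library labelled IRF8KO form a tail of 366 cells that reaches 40063 UMIs, and no gap separates them from the 361 middle cells.

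The macrophage label held in these cells. All 11 microglia markers and all 11 general macrophage markers had UMIs, and each of the 366 cells held at least 3 markers of each class after thinning. C1qa, a subunit of complement C1q, was found in 99.7% of thinned high-UMI cells at 4854 CPM. Csf1r, the receptor that keeps macrophages alive, was at 2407 CPM. Tmem119, a microglial surface protein, was at 889 CPM in high-UMI and 846 in ordinary cells. P2ry12, a purine receptor of homeostatic microglia, was at 624 and 660 CPM, against 3706 in ordinary cells of the WT library.

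Irf8 itself, the targeted gene, was at 766 CPM in high-UMI cells and 628 in ordinary cells of the library labelled IRF8KO (log2 ratio 0.29, interval 0.16 to 0.41). In the WT library it was at 814 and 723 CPM. The part of the gene that was removed is not given in the sources used here, so these counts do not check the label.

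Gene for gene, the deep cells had almost the transcriptome of ordinary cells. Of 3457 genes at 50 CPM or more in either set, 62 (1.79%) were at least 1.5-fold higher in high-UMI cells and 24 (0.694%) at least 1.5-fold lower. The median log2 ratio of high-UMI over ordinary cells was 0.05, 57.7% of genes had a log2 ratio above 0, and 82.7% lay within 1.25-fold. Since few genes were past 1.5-fold, a count of 0 in a short list below is near the share over all genes. Thinning leaves few UMIs for rare genes: with all UMIs kept, 11 of 3392 genes were at least 1.5-fold higher, 5 at least 1.5-fold lower, and 92.4% lay within 1.25-fold. Of the genes past 1.5-fold after thinning, 8 of the 62 higher and 2 of the 24 lower ones were also among the genes called with all UMIs, where the minimum of 50 CPM was applied anew. Gm26669, lower after thinning, had a log2 ratio of -0.75 with all UMIs but lay under that minimum, at 29.2 and 49.2 CPM.

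The genes past 1.5-fold and at 50 CPM or more with all UMIs were few enough to name, and those outside the naming rule were singled out after their values were seen. Higher were the antigen-presentation genes H2-Aa, H2-Ab1, H2-Eb1 and Cd74, the chemokine genes Cxcl9 and Cxcl10, the lysozyme gene Lyz2, and Csf2rb, Ndst1, Arap3 and Stard8. Lower were the chemokine genes Ccl3 and Ccl4, the antisense RNA Tsix, Cox6a2 and G0s2. Csf2rb, the shared receptor chain for GM-CSF and related cytokines, was at 75.7 CPM in high-UMI and 47.6 in ordinary cells with all UMIs (log2 ratio 0.67, interval 0.47 to 0.87). Ccl3 was at 22.7 and 50.1 CPM (log2 ratio -1.14, interval -1.46 to -0.84). Tsix overlaps Xist on the opposite strand, and whether counting used strand is not given in the sources used here, so reads of these 2 genes may not be separable.

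**Figure D2:**
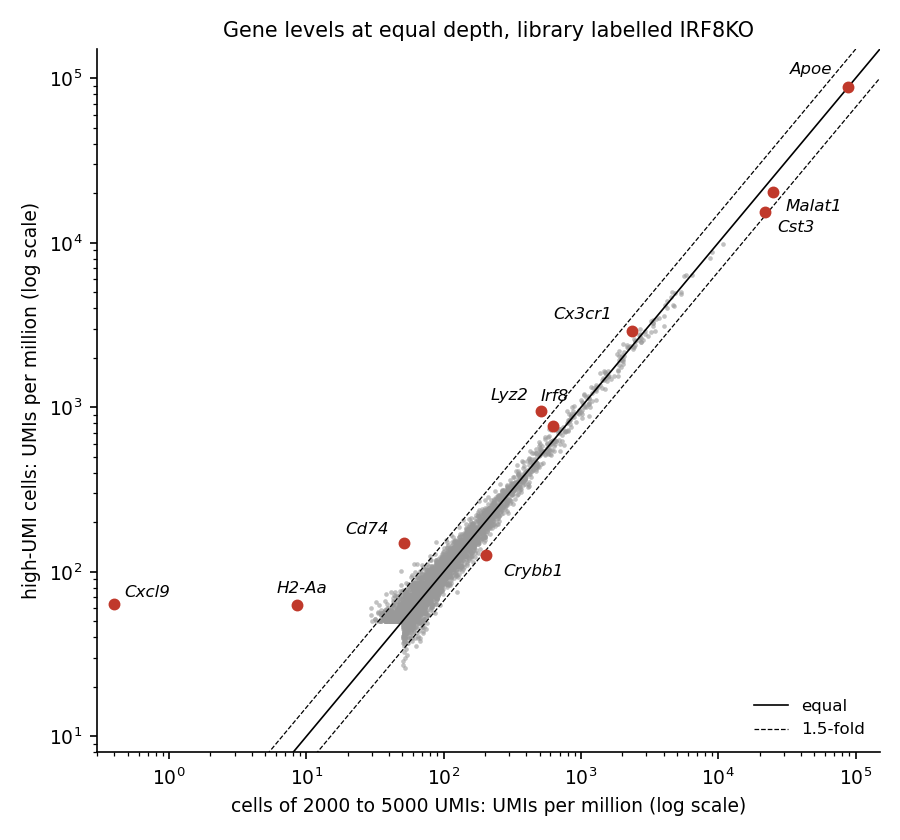
Level of each of 3457 genes in thinned high-UMI cells (vertical, CPM, log scale) against ordinary cells (horizontal, log scale), with lines at equality and 1.5-fold. Most genes follow the line of equality, 82.7% within 1.25-fold, while Cxcl9, H2-Aa, Cd74 and Lyz2 stand above it. Cxcl9 had 0 UMIs in ordinary cells and is drawn at 3 counts.

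Transcript classes that would mark damaged cells or extra translation were at nearly the same share. Mitochondrial transcripts, which build up in cells with leaking cytoplasm, made up 3.98% of thinned UMIs in high-UMI and 3.88% in ordinary cells (log2 ratio 0.04, interval 0.02 to 0.05). The direction was not stable, since with all UMIs the log2 ratio was -0.03. Total mitochondrial share was part of the rule, and it removed 0 cells of 7000 UMIs or more. The same limit did remove cells at the depth of the ordinary cells. For example, of 665 cells from 2754 to below 3064 UMIs, 657 were kept and only 4 were over the neutrophil limit. The total share of ordinary cells was therefore in part fixed by the selection, and damage was compared only among cells under the limit. Of 11 measured mitochondrial genes, 0 were past 1.5-fold, and mt-Nd5 stood highest at 376 against 319 CPM. Cytosolic ribosomal protein genes made up 13.6% of UMIs in both sets (log2 ratio 0.01), and 0 of 80 measured genes were past 1.5-fold. Within that class Rps26 was at 892 against 1153 CPM (log2 ratio -0.37, interval -0.49 to -0.26), and Rpl13a at 187 against 130 (log2 ratio 0.52, interval 0.25 to 0.78, but 0.24 with all UMIs). Near-identical copies of ribosomal protein genes elsewhere in the genome make single values of this family uncertain. Translation factors were at 1.90% and 1.79%, and 0 of 21 measured genes were past 1.5-fold.

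Malat1, a non-coding RNA retained in the nucleus, was lower in the deep cells. It took 2.03% of UMIs in high-UMI cells and 2.49% in ordinary cells (log2 ratio -0.30, interval -0.32 to -0.27). The gene lies on chromosome 19, from 5795690 to 5802672 on the minus strand (GRCm38). The list of nuclear non-coding RNAs as a whole had a log2 ratio of -0.24, and without Malat1 it was at 0.456% and 0.441% (log2 ratio 0.05, with an interval that includes 0). Xist, the RNA of the inactive X chromosome, was at 2740 and 2652 CPM. Kcnq1ot1, an imprinted antisense RNA, was at 363 and 304 CPM (log2 ratio 0.26, interval 0.07 to 0.44). Of 8 measured genes on the list, 4 had a log2 ratio above 0, 4 below, and 0 were past 1.5-fold.

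Neither Malat1 nor the mitochondrial share moved evenly with depth. The median cell from 2000 to below 3000 UMIs gave Malat1 2.70% of its thinned UMIs, that from 3000 to below 5000 UMIs 1.95%, that from 7000 to below 10000 UMIs 2.05%, and that of 20000 or more 1.60%. The corresponding medians of the mitochondrial share were 3.20%, 4.45%, 3.95% and 3.80%. The shallowest ordinary cells had the highest median of Malat1 and the lowest of the mitochondrial share, while cells from 3000 to below 5000 UMIs had the highest mitochondrial share. Cells from 3000 to below 5000 UMIs were closer to the high-UMI cells in Malat1 than to the shallower ordinary cells.

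**Figure D3:**
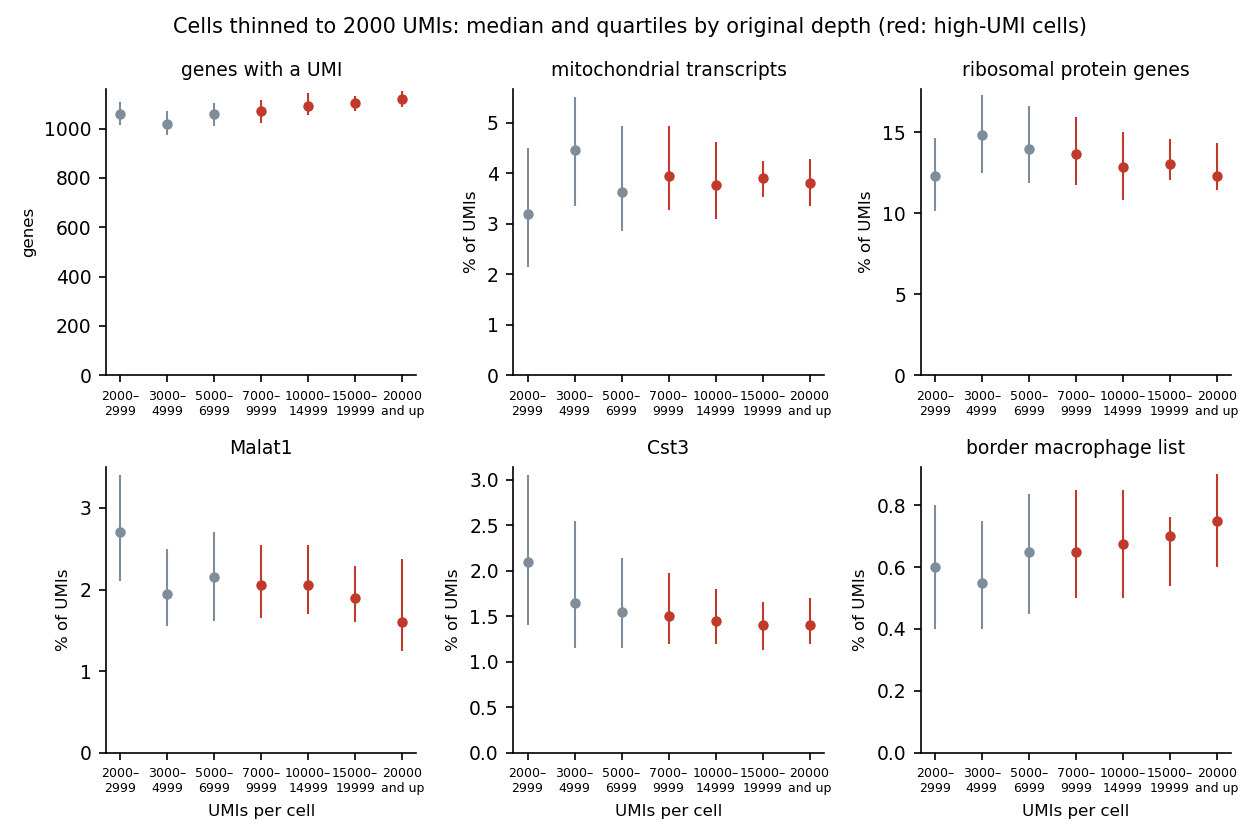
Values per cell after thinning to 2000 UMIs, by the cell's original number of UMIs in the library labelled IRF8KO: genes with a UMI, and the percent of UMIs in 5 classes or genes. Points are medians over cells and bars the quartiles, with high-UMI cells in red. Genes with a UMI lay near 1000 in every class, and Cst3 had a lower median in each high-UMI class than in cells below 3000 UMIs.

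At equal depth the high-UMI cells also showed slightly more different genes. The median thinned cell had UMIs from 1089.5 genes in the high-UMI set, 1060 in the middle cells and 1044 in ordinary cells. The middle part of the high-UMI cells, from the lower to the upper quartile, ran from 1048 to 1133 genes, and that of ordinary cells from 992 to 1093, so the sets overlapped widely. The same order was seen in the WT library, at 1235 and 1188 genes.

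Homeostatic microglia genes were lower as a summed share, and this rested on Cst3. The 30 genes took 3.99% of UMIs in high-UMI and 4.74% in ordinary cells (log2 ratio -0.25, interval -0.27 to -0.23). Of 26 measured genes, 7 had a log2 ratio above 0 and 19 below, with a median of -0.10 against 0.05 over all genes; 0 were at least 1.5-fold higher and 1, Crybb1, at least 1.5-fold lower. Cst3, a secreted inhibitor of cathepsins, was at 15478 CPM in high-UMI and 21832 in ordinary cells (log2 ratio -0.50, interval -0.52 to -0.47). It lies on chromosome 2, from 148871722 to 148875692 on the minus strand. Without Cst3 the list was at 2.44% and 2.55% (log2 ratio -0.06, interval -0.09 to -0.04). Crybb1, a crystallin gene of immature and homeostatic microglia, was at 127 and 205 CPM (log2 ratio -0.69, interval -1.01 to -0.39). Its ratio was under 1.5-fold with all UMIs (-0.40), at 10000 UMIs or more (-0.13), without the highest doublet scores (-0.55) and with ordinary cells weighted to the clusters (-0.26). Sparc, a secreted matrix protein, was at 592 and 752 CPM. Cx3cr1, the fractalkine receptor, went the other way, at 2898 and 2355 CPM (log2 ratio 0.30, interval 0.23 to 0.36).

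Genes of the disease-associated microglia programme were at the same share, 11.3% in high-UMI and 11.4% in ordinary cells. Apoe, the lipid carrier that dominates these cells, took 8.85% and 8.79% of UMIs. Of the 16 measured members, 6 had a log2 ratio above 0 and 10 below, and Lyz2 alone was past 1.5-fold. Ctsl, a lysosomal protease, was at 544 and 707 CPM (log2 ratio -0.38, interval -0.53 to -0.23). Cst7, a cystatin typical of this programme, was at 109 and 120 CPM.

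Lyz2, the lysozyme of macrophages and granulocytes, was the most abundant of the 86 genes past 1.5-fold. It was at 954 CPM in high-UMI and 512 in ordinary cells (log2 ratio 0.90, interval 0.78 to 1.01), and at 977 and 540 with all UMIs. In the middle cells it was at 859 CPM after thinning (log2 ratio 0.75 over ordinary cells), so its increase was not particular to the high-UMI cells. At equal depth it was found in 62.0% of high-UMI and 43.0% of ordinary cells, and with all UMIs, where depth itself differs, in 92.6% and 52.2%. The 10 high-UMI cells richest in Lyz2 held 29.5% of the set's Lyz2 UMIs, and 1 cell held 328. Lyz2 is also an abundant neutrophil and monocyte gene. The 6 neutrophil genes of the rule were limited in both sets by the selection, so their level says nothing on Lyz2, and the part of such cells in its difference was not tested.

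Genes of macrophages at the borders of the brain were a little higher throughout. The list of 16 took 0.705% of UMIs in high-UMI and 0.611% in ordinary cells (log2 ratio 0.20, interval 0.16 to 0.25). All 10 measured members had a log2 ratio above 0, with a median of 0.21 against 0.05 over all genes, and 0 were past 1.5-fold. Ms4a7, a membrane protein of border macrophages, was at 738 and 586 CPM (log2 ratio 0.33, interval 0.20 to 0.46). Mrc1, the mannose receptor, was at 561 and 467, Dab2, an endocytic adaptor, at 661 and 549, and Ms4a6c at 622 and 621 CPM. The summed difference in this list lay within 1.25-fold.

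Interferon response genes were at 0.194% in high-UMI and 0.187% in ordinary cells (log2 ratio 0.05, interval -0.03 to 0.13). Of 16 measured members, 8 had a log2 ratio above 0 and 8 below, against 57.7% above 0 over all genes. Ifih1, a sensor of viral RNA, was at 51.9 and 35.0 CPM (log2 ratio 0.57, interval 0.04 to 1.06), and Isg15, a ubiquitin-like antiviral protein, at 46.4 and 62.7 (log2 ratio -0.43, interval -0.98 to 0.07). MHC class I genes were at 0.305% and 0.312%, with only Tap2, the peptide transporter, past 1.5-fold, and Tap2 was below 0 on the log2 scale under 4 alternatives.

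MHC class II genes, which present peptides to CD4 T cells, were higher as a group, in a few cells. The list took 0.0400% of UMIs in high-UMI and 0.0164% in ordinary cells (log2 ratio 1.29, and 1.15 without Cd74, interval 0.91 to 1.38). Of 3 measured members, H2-Aa and Cd74 were past 1.5-fold and H2-DMb1 was at 51.9 and 52.0 CPM. H2-Aa, an alpha chain of the class II molecule on chromosome 17 from 34282744 to 34287823, was at 62.8 and 8.59 CPM (log2 ratio 2.87, interval 2.29 to 3.44). After thinning it had a UMI in 2.73% of high-UMI and 0.344% of ordinary cells. Cd74, the invariant chain that escorts class II molecules, was at 150 and 51.2 CPM (log2 ratio 1.55, interval 1.24 to 1.86). The 10 richest high-UMI cells held 92.3% of H2-Aa and 71.7% of Cd74 UMIs. The middle cells had a larger share of the list, 0.0643%, so the share did not increase evenly with depth. H2-Aa was at 95.6 and Cd74 at 291 CPM in the middle cells. In the WT library the list was at 0.0493% and 0.0500%.

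A small cluster held most of these transcripts. When the high-UMI, middle and ordinary cells were clustered at equal depth, the 10 leading genes of 1 cluster were H2-Aa, H2-Eb1, Ccr2, S100a6, H2-Ab1, Mgl2, Cxcl9, Cd74, S100a4 and Ahnak, and it was left unnamed because it held only 1 marker of a fixed class. It took 14 of 366 high-UMI cells (3.83%, interval 2.11 to 6.33), 9 of 361 middle cells (2.49%), and 9 of 3782 ordinary cells (0.238%, interval 0.109 to 0.451). Its 14 high-UMI cells had a median of 18322.5 UMIs, and 6 of them were among the 43 cells of 20000 or more. These cells carried 71.3% of the H2-Aa, 79.6% of the H2-Eb1 and 62.6% of the Cd74 UMIs of the set. H2-Aa was found in 11 of the 14, at a median of 531 CPM and a highest of 5339. Ccr2, a chemokine receptor of monocytes, was found in all 14, at 379 CPM over these cells and 12.8 over the other 352. The monocyte genes Ly6c2 and Plac8 had 0 UMIs in any high-UMI cell, and the dendritic cell gene Flt3 had 0 in these 14.

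The same 14 cells carried several macrophage and microglia genes near the level of the other high-UMI cells, but more Lyz2. Lyz2 was at 3059 CPM in them, from 796 to 18140 in single cells, and at 847 in the other 352 high-UMI cells. Apoe was at 74442 CPM in them and 88946 in the other high-UMI cells, C1qa at 5007 and 4860, Tmem119 at 788 and 912, and Cx3cr1 at 3134 and 2988. Apoe, C1qa, Tmem119 and Cx3cr1 were each found in all 14 cells. The 9 ordinary cells of this cluster were unlike the 14. After thinning, Lyz2 was at 17167 CPM in the 9 and 4107 in the 14, and Apoe at 42389 and 68536. Without this cluster in either set, and thinned anew, the MHC class II list had a log2 ratio of 0.79 and Lyz2 of 0.76, while that of H2-Aa was 3.30, at 15.6 and 1.59 CPM. That H2-Aa ratio rested mainly on a single cell, which with all UMIs held 75 of the 101 H2-Aa UMIs in the other 352 high-UMI cells. For Cd74 the richest of those cells held 100 of 310 UMIs.

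Cxcl9, a chemokine induced by interferon-gamma that draws T cells, rested on 2 cells. The 366 high-UMI cells held 251 Cxcl9 UMIs and the ordinary cells 0, which after thinning is at least 162-fold at a floor of 3 counts over the set. All 251 came from 1 cell of the MHC class II cluster, with 149 of its 10918 UMIs, and 1 cell of the interferon-led cluster, with 102 of its 11353. The gene lies on chromosome 5, from 92321347 to 92328079 on the minus strand.

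The summed shares of the activation lists lay close together in the sets. Immediate early genes, the transcription factors and feedback genes switched on within minutes of a stimulus or of handling, were at 0.169% in high-UMI and 0.156% in ordinary cells (log2 ratio 0.12, interval 0.03 to 0.20). Of 10 measured members, 7 had a ratio above 0, 3 below, and 0 were past 1.5-fold. Rgs1, a brake on chemokine receptors, stood highest at 139 and 99.9 CPM (log2 ratio 0.48, interval 0.17 to 0.78). Klf6 was at 224 and 179, Jun at 295 and 310, and Junb at 206 and 198 CPM. Inflammatory activation genes were at 0.162% and 0.168% (log2 ratio -0.05, interval -0.14 to 0.03), with 3 of 12 measured members above 0, 9 below, and 0 past 1.5-fold. With all UMIs 2 of 13 measured members, Ccl3 and Ccl4, were at least 1.5-fold lower. For Ccl4 the direction was not stable. Its log2 ratio was 0.21 at 10000 UMIs or more, 0.62 against cells of 2000 to 3000 UMIs, and below 0 under the other alternatives. A single cell held 110 of the 177 Ccl4 UMIs of the high-UMI set. After thinning Ccl4 was found in 3.01% of high-UMI and 2.14% of ordinary cells. Cxcl2, a chemokine for neutrophils, was at 62.8 and 47.3 and Ccl4, a chemokine of activated microglia, at 42.3 and 53.1 CPM, or 38.6 and 61.7 with all UMIs. Ccl3, a chemokine of the same family, was at 13.7 and 43.2 CPM after thinning, in the same direction, but under the minimum. Cd14, a co-receptor for endotoxin, was at 310 and 322, and Nfkbia, the inhibitor of NF-kB, at 189 and 207 CPM.

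Stress and growth classes were as close. Heat shock and chaperone genes were at 0.435% and 0.430%, unfolded protein response genes at 0.267% and 0.270%, ribosome biogenesis genes at 0.152% and 0.147%, and glycolysis genes at 0.182% and 0.180%. None of the measured members of these 4 lists, 14, 13, 6 and 11 genes, was past 1.5-fold. Over all genes 1.79% were higher and 0.694% lower by that fold, so 0 of so few genes is near that share. Hspa9, a mitochondrial chaperone, was at 66.9 and 76.3, Xbp1, a transcription factor of the unfolded protein response, at 160 and 187, Ncl, a nucleolar protein, at 388 and 346, and Eno1, a glycolytic enzyme, at 99.7 and 114 CPM. Cell cycle genes were at 0.0406% and 0.0376% (log2 ratio 0.11, interval -0.07 to 0.28), and the cluster led by the proliferation genes Mki67 and Top2a held 2 high-UMI cells (0.546%) and 13 ordinary cells (0.344%). Replication-dependent histone genes were at 0.0157% and 0.0150%.

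Several classes of general cell function were slightly lower. Over all genes 57.7% had a log2 ratio above 0. Nuclear-encoded oxidative phosphorylation genes were at 0.640% and 0.673% (log2 ratio -0.07, interval -0.12 to -0.03), with 12 of 34 measured genes above 0. Proteasome and ubiquitin genes were at 0.356% and 0.380% (log2 ratio -0.09, interval -0.15 to -0.04), with 5 of 21 above 0. Lysosome genes were at 3.02% and 3.20%, and actin and adhesion genes at 2.04% and 2.15%. Cholesterol and lipid genes were at 0.544% and 0.632% (log2 ratio -0.22, interval -0.26 to -0.17), which rested on Apoc1, an apolipoprotein beside Apoe, at 3116 and 4004 CPM. Without Apoc1 that list was at 0.233% and 0.232%. Across 26 classes and lists, 19 lay within 1.1-fold and 25 within 1.25-fold by summed share, and MHC class II was the exception. Its direction depended on the cluster proportions: with ordinary cells weighted to the clusters of the high-UMI cells, the log2 ratio of MHC class II was -0.99, and within the MHC class II cluster the list was at 5250 CPM in 14 high-UMI and 18278 in 9 ordinary cells.

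**Figure D4:**
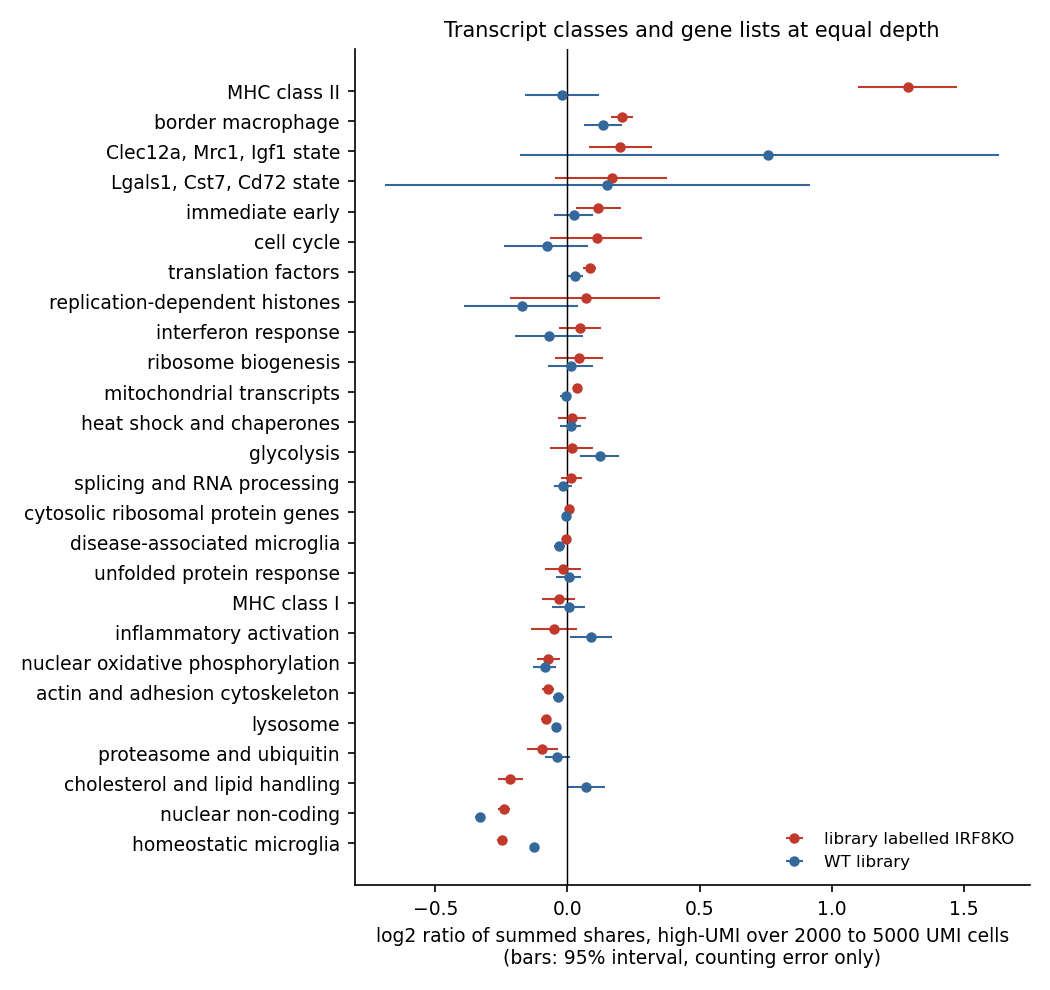
Log2 ratio of the summed share of each class or list in high-UMI over ordinary cells after thinning, for the library labelled IRF8KO (red) and the WT library (blue), with 95% intervals of counting error. In the library labelled IRF8KO only MHC class II lay beyond 1.25-fold, at a log2 ratio of 1.29, and homeostatic microglia stood lowest at -0.25.

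The largest ratios by the naming rule were mostly of rare genes. The 12 highest were Cxcl9, H2-Aa, Cd74, Mmp14, Zfp810, Arap3, Pom121, Lyz2, Kdm3a, Sdc4, Pilrb2 and Rabl6, and 5 of them were past 1.5-fold with all UMIs. Mmp14, a membrane metalloproteinase, was at 101 and 48.8 CPM after thinning (log2 ratio 1.05, interval 0.67 to 1.41) but at a log2 ratio of 0.48 with all UMIs. Sdc4, a heparan sulphate proteoglycan, had log2 ratios of 0.88 and 0.42, and Arap3, a regulator of small GTPases, of 1.02 and 0.64. The 12 lowest were Serpine2, Rbm42, Phgdh, Rab5a, Mrpl15, Gm26669, Snrpd3, Cox6a2, Nupr1, Dpm3, Zcrb1 and Nsrp1, each with 19 to 55 thinned UMIs in the high-UMI cells, and 2 of them, Gm26669 and Cox6a2, were past 1.5-fold with all UMIs. Serpine2, a protease inhibitor, had log2 ratios of -1.01 after thinning and -0.47 with all UMIs. Cox6a2, a subunit of cytochrome c oxidase, had -0.76 and -0.70. Rbm42 had -0.88 and -0.01.

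The deep cells were spread over the library's main clusters, in other proportions. The cluster led by Thbs1, Runx3 and Ms4a7 held 211 high-UMI cells (57.7%, interval 52.4 to 62.8) and 45.5% of ordinary cells. The cluster led by Crybb1, Clec12a, Sparc and Mrc1 held 120 (32.8%, interval 28.0 to 37.9) and 47.1%. The cluster led by interferon response genes such as Ifit3 and Cxcl10 held 17 (4.64%) and 4.89%. The cluster led by Egr1, Ccl4 and Ccl3 held 2 (0.546%) and 1.14%, and the one led by Sall1 held 0 and 0.873%. Ordinary cells were themselves not uniform: the Crybb1-led cluster took 58.6% of cells from 2000 to below 3000 UMIs and 32.0% of those from 3000 to below 5000. Weighting the ordinary cells to the cluster proportions of the high-UMI cells changed the log2 ratio of the homeostatic list from -0.25 to -0.11 and that of Cst3 from -0.50 to -0.32, and turned those of Lyz2, Cd74 and H2-Aa to -0.24, -1.48 and -0.96, where the 9 ordinary cells of the MHC class II cluster count for 3.83% of the weight.

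Within each main cluster a leading gene of the other main cluster was higher in the high-UMI cells, but few leading genes were examined. In the Crybb1-led cluster, Ms4a7, a leading gene of the other cluster, was at 567 CPM in 120 high-UMI and 291 in 1780 ordinary cells (log2 ratio 0.96, interval 0.69 to 1.22). Thbs1, another, was at 37.5 and 18.3 there, with an interval that includes 0 (-0.15 to 2.05). Mrc1, a leading gene of the Crybb1-led cluster itself, was also higher there, at 792 and 631 (log2 ratio 0.33, interval 0.11 to 0.54). Lyz2 was at 550 and 263 there (log2 ratio 1.06, interval 0.79 to 1.33), and Cst3 at 18821 and 28578 (log2 ratio -0.60, interval -0.65 to -0.56). In the Thbs1-led cluster, Mrc1, a leading gene of the Crybb1-led cluster, was at 524 in 211 high-UMI and 323 in 1719 ordinary cells (log2 ratio 0.70, interval 0.48 to 0.91). The summed share of Clec12a, Mrc1 and Igf1 was at 749 and 503 CPM (log2 ratio 0.57, interval 0.40 to 0.75), and that of Lgals1, Cst7 and Cd72 at 268 and 369 (log2 ratio -0.46, interval -0.75 to -0.18). In the Thbs1-led cluster Cst3 was at 13896 and 14380 CPM (log2 ratio -0.05), a smaller difference than in the Crybb1-led cluster. The clusters were drawn from these same genes, so these values describe the sets and test nothing.

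High-UMI cells were also more alike among themselves. The SD between cells of the thinned share was smaller in high-UMI than in ordinary cells for 23 of 26 classes and lists. For Cst3 it was 0.567 against 1.20 percentage points, for Apoe 2.19 against 3.27, and for mitochondrial transcripts 1.18 against 1.75. The upper tail of ordinary cells in Cst3, above its 95th percentile of 4.45% of UMIs, held 0 of 366 high-UMI cells. The source of the narrower spread was not tested.

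Doublet scores were higher in the deep cells. The scrublet method compares each cell with simulated pairs of cells. It called 11 of 5110 cells (0.215%), against 4.24% at an assumed rate of 0.8% per 1000 barcodes, so only its scores were used. The scores came from all UMIs of each cell, so the sets were not at equal depth here. The median score was 0.143 in high-UMI cells, 0.126 in middle cells and 0.100 in ordinary cells. Of the 217 highest-scored cells, 47 were high-UMI cells (12.8% of them, interval 9.59 to 16.7) and 132 were ordinary cells (3.49%, interval 2.93 to 4.13). Without those cells in either set the homeostatic list kept a log2 ratio of -0.24, the nuclear non-coding list -0.21, the border macrophage list 0.22 and MHC class II 1.38. The log2 ratio of 7 of 26 lists, all near 0, took the other sign: ribosomal protein genes, splicing, ribosome biogenesis, glycolysis, the unfolded protein response, inflammatory activation (from -0.05 to 0.09) and the trio of Lgals1, Cst7 and Cd72 (from 0.17 to -0.01). The part of droplets with more than 1 cell in the high-UMI set was not tested.

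Most markers of other cell types were near 0, a check that cannot see pairs of like macrophages. Of 12 neutrophil markers 5 had UMIs in thinned high-UMI cells, at 43.7 CPM in sum against 61.3 in ordinary cells, with Mmp8, Elane and Mpo at 0 with all UMIs. The leading neutrophil marker, S100a8, was a gene of the rule, so that sum was in part fixed by the selection. Of 11 T and NK cell markers 1 had a UMI, at 4.10 CPM in sum against 0.529. Neuron markers summed to 4.10 against 5.82, astrocyte markers to 32.8 against 40.5, oligodendrocyte markers to 50.5 against 57.0, B cell markers to 10.9 against 30.1, and mural and fibroblast markers to 0 against 0.397 CPM. Monocyte markers summed to 38.3 against 6.74, almost all of it Ccr2, with Ly6c2, Plac8 and F10 at 0. Endothelial markers were at 399 against 408, almost all of it Bsg, which macrophages also express, with Cldn5, Cdh5 and Ly6c1 at 0. Dendritic cell markers were at 947 against 1003 CPM, nearly all of it Siglech, which is also a microglia marker, with Xcr1 and Ccr7 at 0. After thinning, 0 high-UMI cells held 3 markers of any of these classes. With all UMIs 5 cells held 3 neutrophil, 7 held 3 endothelial, 2 held 3 astrocyte, 2 held 3 oligodendrocyte and 1 held 3 dendritic cell markers.

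Joint detection of 2 gene trios, taken from states described earlier in these data, lay near the product of the separate shares in both sets. At least 1 of Clec12a, Mrc1 and Igf1 was found in 77.9% of thinned high-UMI cells and at least 1 of Lgals1, Cst7 and Cd72 in 38.5%. Both trios were found in 104 cells, 28.4% (interval 23.8 to 33.3), which is 0.947 of the product of the separate shares, and that product lies inside the interval. In ordinary cells the observed share was 20.8%, which is 0.931 of the product. For interferon genes with the Clec12a trio the ratio to the product was 1.02 in high-UMI and 0.976 in ordinary cells, and with the Lgals1 trio 0.955 and 1.05.

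Transcript length tracked the small differences that remained. Genes were split into 5 groups of equal size by the length of their longest annotated transcript, and the median log2 ratio with all UMIs went from -0.09 in the shortest group, through -0.01, 0.07 and 0.12, to 0.17 in the longest. In the shortest group 27.1% of genes had a log2 ratio above 0, and in the longest 88.7%. Over the 3392 genes measured with all UMIs it was 62.7%. Over 3456 genes of these cells the rank correlation of length and log2 ratio was 0.53 with all UMIs and 0.31 after thinning. This is a correlation across genes of the same pair of cell sets, and genes are not independent replicates. It was 0.51 within the Thbs1-led and 0.41 within the Crybb1-led cluster. The WT library gave 0.33 with all UMIs and 0.29 after thinning, with medians from -0.04 to 0.11. Mean level was less related to the ratio, at a rank correlation of -0.13.

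**Figure D5:**
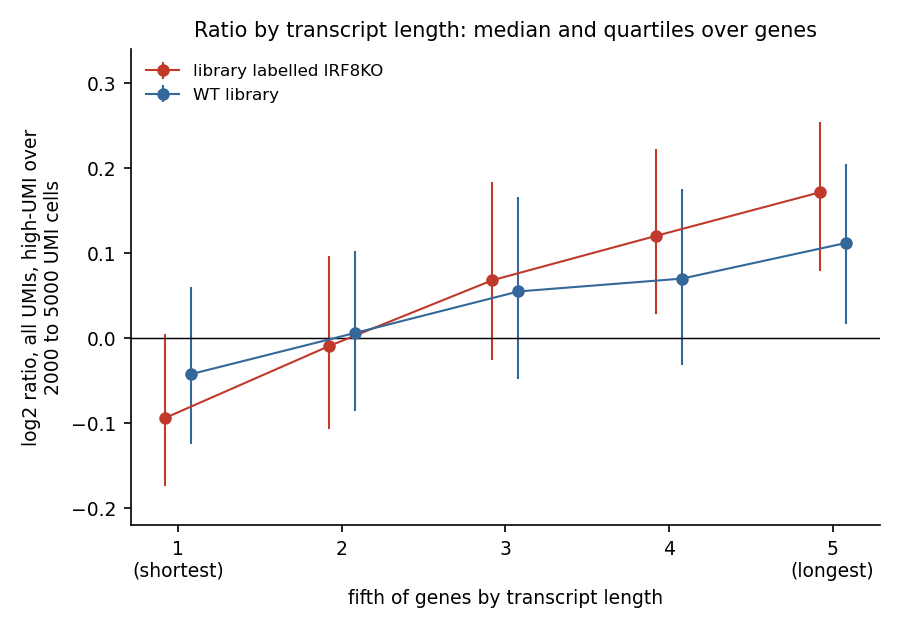
Median log2 ratio of high-UMI over ordinary cells with all UMIs (points) and quartiles over genes (bars) in 5 groups of genes by transcript length, for the library labelled IRF8KO (red) and the WT library (blue). The median goes from -0.09 to 0.17 in the library labelled IRF8KO and from -0.04 to 0.11 in the WT library.

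The per-gene ratios went in part with those of the deep WT cells, which share no cell with them. Over 3176 genes measured in both, the per-gene log2 ratios with all UMIs had a Pearson correlation of 0.65, and those after thinning of 0.32, given as descriptions across genes. Malat1 was at 25326 against 32476 CPM in WT (log2 ratio -0.36, interval -0.38 to -0.34), and Cst3 at 44381 against 53605 (log2 ratio -0.27, interval -0.29 to -0.26). Of 4035 WT genes, 31 (0.768%) were at least 1.5-fold higher after thinning and 17 (0.421%) at least 1.5-fold lower. Among genes measured in both libraries, the 39 higher ones of the library labelled IRF8KO and the 8 of WT shared 0, and the 20 and 12 lower ones shared 0. With so few genes of 3176, a shared count of 0 is near what the shares over all genes give. At 1.25-fold, 313 of all 3176 genes were higher in the library labelled IRF8KO, and 60 of the 200 higher WT genes (30%) were among them. At that fold 174 of all 3176 genes were lower in it, and 20 of the 128 lower WT genes (15.6%) were among them. With all UMIs and at 1.5-fold, 2 of 3176 genes were lower in the library labelled IRF8KO, and both were among the 8 of WT. The 3 and 1 higher ones shared 0. Of the genes higher in these deep cells than in ordinary cells, Lyz2 was at 254 and 218 CPM in WT (log2 ratio 0.22, interval 0.01 to 0.41). Cd74 was at 34.4 and 32.6 there (log2 ratio 0.08, interval -0.49 to 0.61). The difference between the libraries in these ratios was not tested.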

How the data were processed

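Droplet single-cell RNA was measured in 2 libraries. The authors deposited raw UMI counts for each gene in each barcode. Software version 3.1.0 made the matrices, per the file headers, and the submitters' processing notes name Cell Ranger 3.1, bcl2fastq, Scanpy and the mm10 build. The labels' protocols name a full-length kit beside the droplet platform, and the values were handled as droplet counts. The libraries held 18706147 (WT) and 19998075 UMIs. Symbols that occur more than once were summed, and 30934 of 31053 features matched GENCODE M21 (GRCm38).

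The members and gene lists were chosen with earlier results of these data known. Cells were thinned once to 2000 UMIs with a fixed seed, which gave 732000 UMIs in high-UMI and 7564000 in ordinary cells. The log2 ratio is that of summed shares, with 0 counts set to 3 over the set. Genes with at least 50 CPM in either set were measured. Named genes are the 12 highest and 12 lowest ratios without mitochondrial, ribosomal protein and haemoglobin genes, Irf8, and the 3 largest ratios in size of each list. Other genes given with values, such as identity markers, Jun, Junb, Cd14, Nfkbia and Ms4a6c, were chosen after their values were seen. Cells were clustered with Leiden (resolution 0.5, 30 components, 15 neighbours, 2000 genes; scanpy 1.11.5, leidenalg 0.10.2), and a cluster was named only from 3 fixed markers among 10 leading genes. The code for the ratios was checked on simulated counts with known folds. Every marker list has its values above except those of microglia, 18031 against 18635, macrophages, 21969 against 23550, border macrophages, 4439 against 3716, and erythrocytes and platelets, 2.73 against 4.49 CPM.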

Additional observations from a re-analysis of the deposited data

Results flagged for a closer look

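Cholesterol and lipid handling genes had opposite ratios in the libraries: the log2 ratio of high-UMI over ordinary cells was -0.22 in the library labelled IRF8KO and 0.07 in the WT library (interval 0.00 to 0.14). The difference was not tested. Apoc1 was the largest part of the list in the library labelled IRF8KO, and without it the log2 ratio there was 0.01 (interval -0.07 to 0.08).

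Outside the chosen cells, 49 cells of at least 7000 UMIs in the library labelled IRF8KO were left out for neutrophil genes, while 0 of the 524 WT cells of that depth were. Their median share of UMIs in the 6 neutrophil genes was 43.1%, with a lowest of 2.36%, and 3 cells were under 20%. They held a median of 10537 UMIs. Camp, an antimicrobial peptide of neutrophil granules, was at 50954 CPM in them, and the macrophage genes C1qa and Apoe were at 824 and 14043, with a C1qa UMI in 13 of the 49.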

How the results depend on the processing

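The number of genes past 1.5-fold, 62 higher and 24 lower, depended on depth and minimum level. The higher and lower counts were 11 and 5 with no thinning, 187 and 81 when thinned to 1000 UMIs, 223 and 101 for cells of at least 10000 UMIs, 101 and 45 at 5% or fewer mitochondrial UMIs, 1 and 1 at a minimum of 200 CPM, 1363 and 947 with no minimum beyond 10 UMIs, and 6 and 1 at a fold of 2. With all UMIs and without the MHC class II cluster, an alternative chosen after seeing the data, they were 7 and 4. Middle cells in place of the high-UMI cells gave 36 higher, comparison cells of 2000 to 3000 UMIs gave 40 lower, and leaving mitochondrial and ribosomal protein genes out of the totals gave 43 lower. The cause was not tested.

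The log2 ratio of mitochondrial transcripts was -0.032 with no thinning, -0.016 at 10000 UMIs or more, 0.014 in a second random draw, 0.21 against cells of 2000 to 3000 UMIs, 0.20 at 5% or fewer mitochondrial UMIs, 0.0049 without the highest doublet scores and 0.0019 with comparison cells weighted to the clusters. That of ribosomal protein genes was -0.055 with no thinning, -0.052 at 10000 UMIs or more, 0.12 against 2000 to 3000 UMIs, -0.0085 without the highest doublet scores, -0.069 weighted and 0.075 for middle cells. Inflammatory activation was 0.071 at 1000 UMIs, 0.056 against 2000 to 3000 UMIs, 0.11 at 5% mitochondrial UMIs and 0.093 without the highest doublet scores. The homeostatic list stayed below 0, at -0.22 with no thinning and in the second draw, -0.20 for middle cells, -0.33 against 2000 to 3000 UMIs, -0.27 at 5% mitochondrial UMIs and -0.11 weighted. Nuclear non-coding RNAs stayed below 0, at -0.21 with no thinning, in the second draw and without the highest doublet scores, -0.18 for middle cells, -0.40 against 2000 to 3000 UMIs, -0.27 at 5% mitochondrial UMIs and -0.20 weighted. The border macrophage list was 0.13 for middle cells and 0.25 at 10000 UMIs or more. The difference between the medians of genes detected at equal depth, 45.5 at 2000 UMIs, was 25 at 1000 UMIs and 1946.5 with no thinning.

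Changes of sign are listed only for named genes whose main interval did not include 0, which leaves out genes such as Ccl4. Single genes with the other sign were, weighted to the clusters, H2-Aa (-0.96), Cd74 (-1.48), Lyz2 (-0.24) and Lgals1 (-0.0052). At 1000 UMIs they were Kdm3a (-0.060), Serpine2 (0.014), Rbm42 (0.30), Dpm3 (0.047) and Tap2 (-0.27). Without the highest doublet scores they were Sdc4 (-0.36), Rab5a (0.051), Rpl31 (-0.050) and Tap2 (-0.23). At 10000 UMIs or more it was Rabl6 (-0.38), and at 5% mitochondrial UMIs Rbm42 (0.11) and Tap2 (-0.016). For middle cells they were Rab5a (0.30), Gm26669 (0.19), Dpm3 (0.29), Zcrb1 (0.031), mt-Nd3 (-0.059), Tap2 (-0.0069), Rgs1 (-0.24), Pfn1 (0.13) and Ddx17 (-0.011). The cause was not tested. No paired analysis was possible because each group is 1 library, and no replicate could be left out.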
